A study of Mus musculus with 16 samples.

Results

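A set of 6 genes that mark parts of the diencephalon was followed through all 16 libraries of a study of fetal mouse cortex. Tcf7l2, Gbx2 and Lhx9 are genes of the developing thalamus, and Otp, Sim1 and Mc4r are genes of the hypothalamus. All 6 of 6 were counted in every library and passed the filter on low counts, which left 21543 of 55359 gene IDs. Of these, 5 encode transcription factors, while Mc4r encodes the melanocortin 4 receptor, a G protein-coupled receptor, so the set is called the diencephalic genes here. The genes were chosen by their CPM in these libraries by exposure, with earlier results in view, so differences between exposed and control libraries are given as description, without a test.

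Total RNA was taken at gestational day 16 from cortices of male and female fetuses whose father (paternal), mother (maternal) or both parents (dual) were exposed to ethanol, or of fetuses of parents labelled control. Each sex and exposure had 2 libraries, so each exposure had 4. The strain, the dose and timing of ethanol, the litter of each fetus and whether 1 cortex or several made a library are given by neither the labels nor the design text. The question that the design puts to these genes is whether their RNA differed with either parent's exposure, in one sex or both.

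The thalamus and hypothalamus lie beneath the cortex and arise from the diencephalon, a neighbouring division of the forebrain. Thalamic neurons send their axons into the cortex, and the identity of these neurons depends on transcription factors such as Tcf7l2 and Gbx2. In the hypothalamus, Otp and Sim1 are needed for neuroendocrine neurons of the paraventricular and supraoptic nuclei, and Mc4r acts in the control of food intake, partly in Sim1-expressing cells. None of these genes is taken here as restricted to the diencephalon. For example, Tcf7l2 also acts downstream of Wnt signals and in cells of the oligodendrocyte lineage, and Mc4r is also found in other brain regions.

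Libraries held 15336566 to 35218456 counts, with 15336566 to 19966696 in males and 26134287 to 35218456 in females, so values of low genes were more precise in females. Levels are CPM (counts scaled to a common library total) after scaling by TMM, edgeR's factors for library composition, and log2 fold changes come with the standard error (SE) of a model fitted to all 21543 genes. Cortical neuron and progenitor genes, a list of 7 with Emx1, Tbr1 and Neurod6, summed to 1884 to 2496 CPM per library, with the lowest sum in female control replicate 2. The 3 thalamic genes summed to 30.3 to 94.5 CPM and the 3 hypothalamic genes to 12.7 to 31.9 CPM. One library stood apart in the sum of the thalamic genes: female control replicate 2 had 94.5 CPM, against 30.3 to 52.1 CPM in the other 15 libraries. Of this sum 68.7 CPM was Tcf7l2 and 23.1 CPM Lhx9, while Gbx2, at 2.75 CPM, was not highest there. Values are therefore given with and without that library. In such bulk tissue, fewer cells of a type and less RNA per cell cannot be told apart, nor can either be told apart from more or less diencephalic tissue in a dissected cortex.

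Levels of the 6 genes can be ranked only per length. Divided by the combined exon length of each gene in GENCODE M21, the mean over 16 libraries was 4.56 CPM per kb for Mc4r, 3.12 for Tcf7l2, 1.33 for Otp, 1.31 for Lhx9, 0.945 for Gbx2 and 0.422 for Sim1. Otp and Lhx9 did not differ beyond their spread, with ranges over libraries of 0.539 to 2.72 and 0.889 to 2.43 CPM per kb. The receptor gene and Tcf7l2 also overlapped in range, at 2.73 to 8.21 for Mc4r and 2.20 to 7.82 CPM per kb for Tcf7l2.

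**Figure D1:**
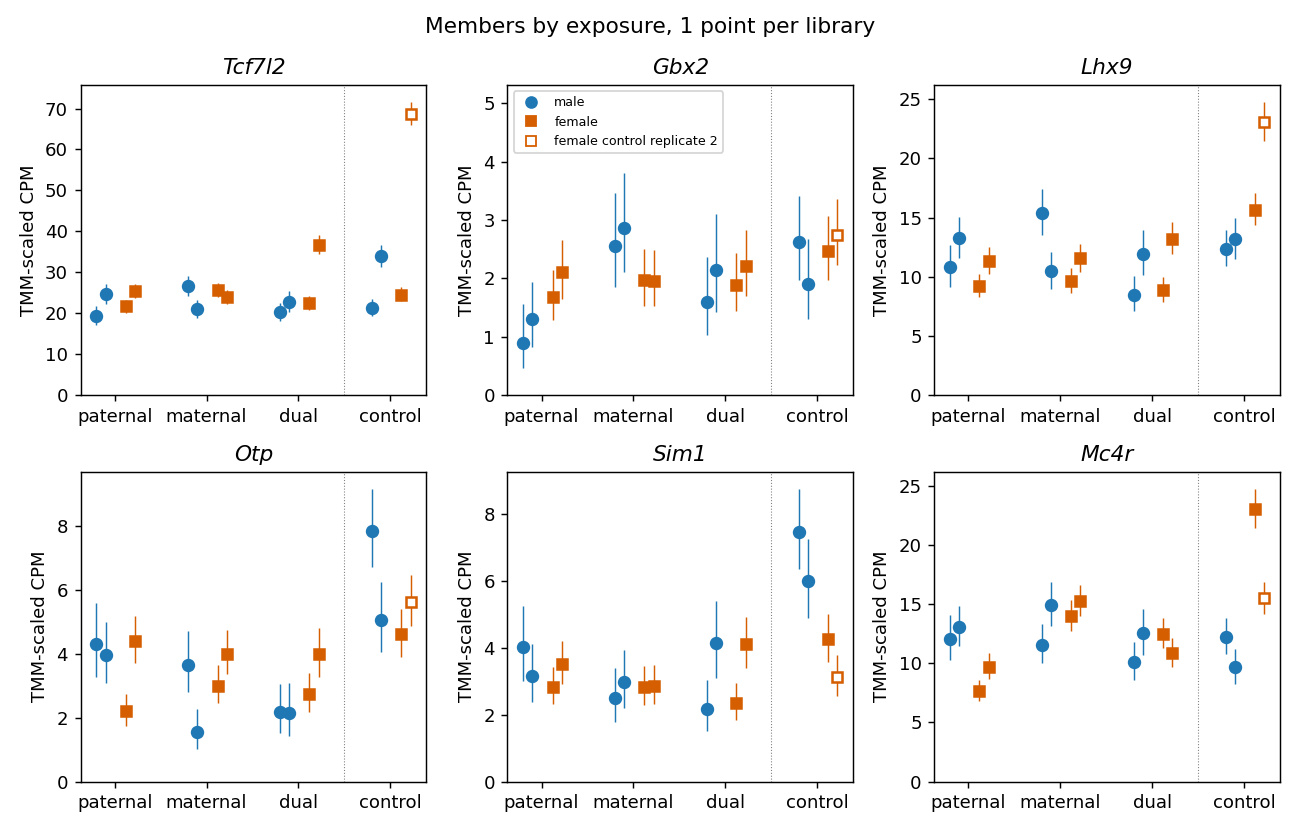
TMM-scaled CPM of the 6 diencephalic genes (vertical axis, linear, from 0) by exposure (horizontal axis), with 1 point per library, males as circles and females as squares; bars are exact 95% Poisson intervals and cover counting error only. Tcf7l2 in female control replicate 2 (open square, 68.7 CPM) lies far above every other library, while the 12 exposed Otp points all lie below the 4 control points.

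The promoters of 4 of these genes are shown to set the gene whose control level was most uneven (Tcf7l2) beside the thalamic gene that varied with it (Lhx9), the thalamic gene that did not (Gbx2) and the gene lower in every exposed library (Otp). Each is 200 bases of RefSeq on GRCm38.p6, running from 250 to 51 bases before the annotated start of the gene, 5′ to 3′ on the strand of the gene. The windows are chr19:55741560-55741759 on the plus strand for Tcf7l2, chr1:89931227-89931426 on the minus strand for Gbx2, chr1:138842495-138842694 on the minus strand for Lhx9 and chr13:94875386-94875585 on the plus strand for Otp. Capitals mark ACGTG on either strand (CACGT on the other), the core bound by basic helix-loop-helix PAS factors, the family of Sim1.
Tcf7l2: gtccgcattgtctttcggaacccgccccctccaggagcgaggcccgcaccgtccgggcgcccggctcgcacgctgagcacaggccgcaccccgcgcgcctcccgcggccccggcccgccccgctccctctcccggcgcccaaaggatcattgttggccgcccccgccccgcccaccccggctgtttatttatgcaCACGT
Gbx2: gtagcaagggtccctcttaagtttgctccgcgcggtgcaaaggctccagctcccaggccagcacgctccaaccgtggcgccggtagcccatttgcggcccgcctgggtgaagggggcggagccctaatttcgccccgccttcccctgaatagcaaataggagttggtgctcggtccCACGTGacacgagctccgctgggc
Lhx9: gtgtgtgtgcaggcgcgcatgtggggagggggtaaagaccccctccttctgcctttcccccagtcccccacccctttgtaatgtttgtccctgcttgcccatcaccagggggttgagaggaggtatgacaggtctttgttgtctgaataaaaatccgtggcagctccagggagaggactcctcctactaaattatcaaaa
Otp: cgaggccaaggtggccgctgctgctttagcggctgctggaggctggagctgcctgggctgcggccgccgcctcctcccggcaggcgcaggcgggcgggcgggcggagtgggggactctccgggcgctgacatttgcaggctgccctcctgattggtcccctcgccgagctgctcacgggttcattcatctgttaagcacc

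The core occurred 1 time in the Tcf7l2 window, as 2 overlapping matches on opposite strands in the Gbx2 window and 0 times in the Lhx9 and Otp windows, while 12.9% of 32851 promoter windows of the same length held it. The motif CTTTGAT of the TCF and LEF family, to which Tcf7l2 belongs, was searched on both strands (ATCAAAG on the other) and occurred 0 times in the 4 windows, against 2.64% of all windows.

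Tcf7l2, a TCF/LEF factor that works with beta-catenin and is a marker of thalamic and habenular neurons, was lower on average in every exposed group. It stood at 19.3, 24.6, 21.6 and 25.4 CPM in the paternal libraries (male replicates 1 and 2, then female replicates 1 and 2). In the same order it stood at 26.5, 20.9, 25.6 and 23.9 CPM in the maternal libraries and at 20.2, 22.7, 22.5 and 36.7 CPM in the dual libraries. In the control libraries it stood at 21.3, 33.9, 24.5 and 68.7 CPM. Exposed and control libraries overlapped under each exposure, and female control replicate 2 was the one library above 36.7 CPM.

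The log2 fold change of Tcf7l2 was -0.65 ± 0.24 for paternal, -0.56 ± 0.24 for maternal and -0.51 ± 0.24 for dual exposure against control (± SE, 4 libraries each). Without female control replicate 2 these became -0.19, -0.10 and -0.05. Without female control replicate 1 they became -0.93, -0.84 and -0.79. The difference between exposed and control Tcf7l2 therefore rested on female control replicate 2 more than on any other library. The 2 female controls differed by 1.49 on the log2 scale for Tcf7l2, and 3.28% of all tested genes differed by more in that pair.

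Lhx9, a LIM homeobox factor of thalamic and other diencephalic neurons, also reached its highest level in female control replicate 2. It was at 10.8, 13.2, 9.22 and 11.3 CPM in the paternal libraries, in the order used for Tcf7l2. It was at 15.4, 10.4, 9.65 and 11.5 CPM in the maternal libraries. It was at 8.44, 11.9, 8.85 and 13.2 CPM in the dual libraries, against 12.3, 13.2, 15.7 and 23.1 CPM in the control libraries. In females all 6 exposed libraries lay below both controls, whereas in males the exposed libraries (8.44 to 15.4 CPM) spanned both controls.

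The pooled log2 fold change of Lhx9 was -0.50 ± 0.17 for paternal, -0.43 ± 0.17 for maternal and -0.57 ± 0.17 for dual exposure. Leaving out female control replicate 2 brought these to -0.34, -0.27 and -0.42, so Lhx9 kept more of its difference than Tcf7l2. Within males the values were -0.08 ± 0.25, 0.02 ± 0.24 and -0.33 ± 0.25, and within females -0.92 ± 0.23, -0.87 ± 0.23 and -0.82 ± 0.23, in the same order of exposures.

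Gbx2, a homeobox factor needed for thalamic neurons and their axons to the cortex, was the least counted thalamic gene, with 12 to 95 counts per library. It was at 0.893, 1.30, 1.67 and 2.11 CPM in the paternal libraries. It was at 2.56, 2.86, 1.97 and 1.96 CPM in the maternal libraries. It was at 1.60, 2.14, 1.89 and 2.21 CPM in the dual libraries, against 2.62, 1.90, 2.47 and 2.75 CPM in the control libraries. Female control replicate 2 did not stand out here, and the 2 paternal males were the lowest libraries of the series.

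The log2 fold change of Gbx2 was -0.75 ± 0.22 for paternal, -0.08 ± 0.20 for maternal and -0.32 ± 0.21 for dual exposure. It was -1.03 ± 0.33 in paternal males and -0.47 ± 0.28 in paternal females. The maternal value turned to 0.06 without male control replicate 1. The lowest library had 12 counts, and its exact 95% Poisson interval of 0.462 to 1.56 CPM overlapped that of male control replicate 2, at 1.31 to 2.67 CPM. In GENCODE M21, 946 exon bases of Gbx2 are shared with D130058E05Rik on the opposite strand. No source used here gives the strand setting of the counting, so reads of the gene and its antisense partner cannot be told apart.

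**Figure D2:**
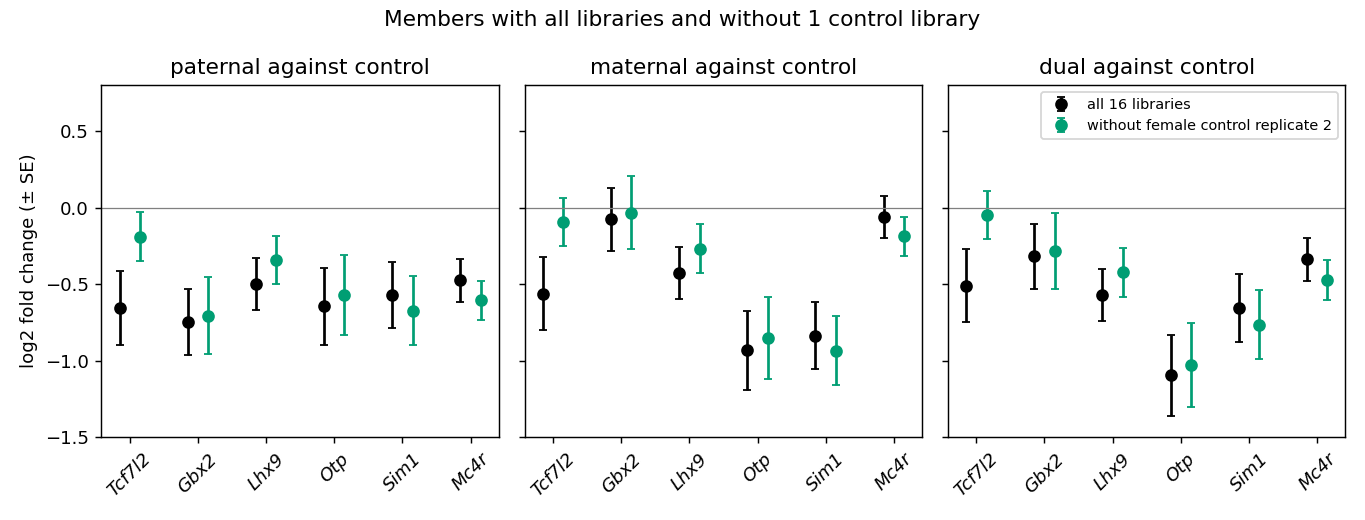
Log2 fold change against control (vertical axis, bars ± SE) of the 6 genes for each exposure, with all 16 libraries (black) and without female control replicate 2 (green). Tcf7l2 moved from -0.65 to -0.19 under paternal exposure when that library was left out, and the Otp and Sim1 values stayed at or below -0.57.

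Otp, a homeobox factor needed for neuroendocrine neurons of the hypothalamus, was lower in each of the 12 exposed libraries than in any of the 4 controls. It was at 4.32, 3.94, 2.19 and 4.40 CPM in the paternal libraries. It was at 3.66, 1.55, 3.0 and 4.0 CPM in the maternal libraries. It was at 2.17, 2.14, 2.73 and 3.99 CPM in the dual libraries, against 7.85, 5.06, 4.62 and 5.62 CPM in the control libraries. The gap was narrow at its edge, with 4.40 CPM in female paternal replicate 2 and 4.62 CPM in female control replicate 1, whose exact 95% Poisson intervals (3.72 to 5.17 and 3.91 to 5.41 CPM) overlapped.

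Of the 21543 tested genes, 9 (0.0418%) had all 12 exposed libraries below all 4 controls, and Otp was 1 of them. Taken by exposure, the 4 paternal libraries lay below the 4 controls in 374 genes (1.74%), the maternal ones in 196 (0.91%) and the dual ones in 458 (2.13%). Otp was among them under all 3 exposures and Sim1 under maternal exposure. These patterns helped choose the genes, so the counts support nothing further.

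The log2 fold change of Otp was -0.65 ± 0.25 for paternal, -0.93 ± 0.26 for maternal and -1.10 ± 0.26 for dual exposure. Leaving out any 1 library kept these at -0.94 to -0.43, -1.30 to -0.68 and -1.24 to -0.92. Over all 21543 genes, edgeR's quasi-likelihood test with Benjamini-Hochberg adjustment called 0 genes for paternal (0%), 0 for maternal (0%) and 724 for dual exposure (3.36%). At an unadjusted p under 0.05 there were 1821 genes for paternal and 817 for maternal exposure, and DESeq2 called 22 and 2. Since the 6 genes were chosen on these contrasts, no call is given for any of them.

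Sim1, a basic helix-loop-helix PAS factor needed for the paraventricular nucleus, was high in the 2 male controls. It was at 4.02, 3.16, 2.83 and 3.51 CPM in the paternal libraries. It was at 2.5, 2.98, 2.82 and 2.86 CPM in the maternal libraries. It was at 2.17, 4.13, 2.34 and 4.10 CPM in the dual libraries, against 7.47, 5.99, 4.25 and 3.13 CPM in the control libraries. All 6 exposed males lay below both male controls, while female control replicate 2, at 3.13 CPM, lay within the range of the exposed females (2.34 to 4.10 CPM).

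The log2 fold change of Sim1 was -0.57 ± 0.22 for paternal, -0.84 ± 0.22 for maternal and -0.65 ± 0.22 for dual exposure. Within males it was -0.92 ± 0.31, -1.30 ± 0.32 and -1.11 ± 0.32, and within females -0.22 ± 0.30, -0.37 ± 0.30 and -0.20 ± 0.30. Without 1 library the pooled values ran from -0.67 to -0.45, from -0.93 to -0.72 and from -0.93 to -0.46.

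Mc4r, the receptor for melanocortin peptides, was lower in exposed than in control libraries of females and not of males. It was at 12.1, 13.1, 7.65 and 9.72 CPM in the paternal libraries. It was at 11.6, 14.9, 14 and 15.2 CPM in the maternal libraries. It was at 10.1, 12.6, 12.5 and 10.9 CPM in the dual libraries, against 12.2, 9.67, 23.0 and 15.5 CPM in the control libraries. The paternal females were the 2 lowest exposed libraries and female control replicate 1 the highest of all, while the exposed males (10.1 to 14.9 CPM) all lay above the lower male control.

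The log2 fold change of Mc4r was -0.48 ± 0.14 for paternal, -0.06 ± 0.14 for maternal and -0.34 ± 0.14 for dual exposure. Without female control replicate 1 it was -0.32, 0.09 and -0.18, so the maternal value changed sign. Without female control replicate 2 it was further below 0, at -0.60, -0.19 and -0.47. Within females it was -1.15 ± 0.19, -0.40 ± 0.19 and -0.72 ± 0.19, and within males 0.20 ± 0.21, 0.27 ± 0.21 and 0.04 ± 0.21. Female control replicate 1 also had the lowest sum of 6 meningeal and fibroblast genes, at 80.3 CPM, against 207.5 to 578 CPM in the other 15 libraries. It had the highest sum of 8 genes of the ventral telencephalon and striatum, at 621 CPM, against 423.8 to 527.4 CPM in the other 15. The part of these differences in the Mc4r values was not tested.

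The division into thalamic and hypothalamic genes was crossed by the sexes. In males, all 6 exposed libraries lay below both controls for Otp and Sim1 and for 0 of the 3 thalamic genes, beside 1180 genes (5.48%) with that pattern. In females, they did so for Gbx2, Lhx9, Otp and Mc4r, beside 1384 genes (6.42%). Otp was thus the 1 gene of the 6 that was lower in all exposed libraries of both sexes. In female maternal replicate 2 the gap for Mc4r was narrow, at 15.2 CPM, against 15.5 CPM in the lower female control.

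**Figure D3:**
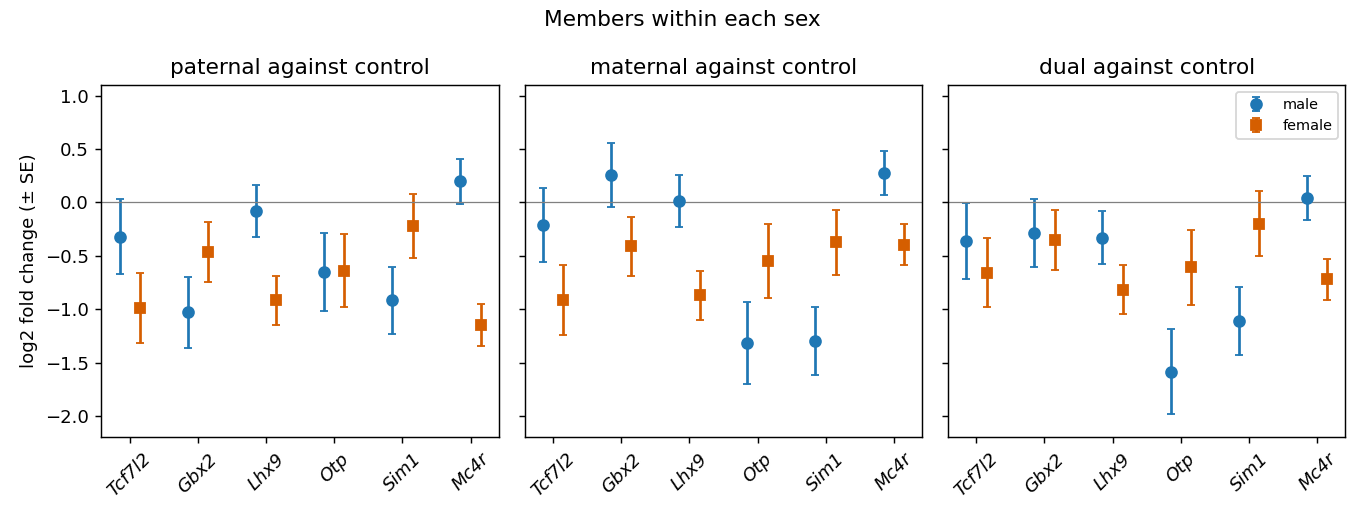
Log2 fold change against control (vertical axis, bars ± SE, 2 libraries per group) of the 6 genes in males (circles) and females (squares) for each exposure. Sim1 lay further below 0 in males (-0.92, -1.30 and -1.11) than in females (-0.22, -0.37 and -0.20), and Lhx9 and Mc4r lay further below 0 in females; with all libraries and the filter, edgeR's tests of these differences between sexes passed for none of the 6 genes.

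The difference between the sexes was tested directly, as the male minus the female effect. These effects are built from values that helped choose the 6 genes. Their p-values here and in the next paragraph are therefore description and give no support. By edgeR's quasi-likelihood test, 0 of the 6 genes passed for paternal exposure, where 0 of all genes passed (0%), 0 for maternal exposure, where 0 passed (0%), and 0 for dual exposure, where 753 passed (3.5%). Unadjusted p was under 0.05 in 2320, 2124 and 4397 genes, and DESeq2 called 25, 14 and 1076 genes. The widest difference was that of Mc4r under paternal exposure, at 1.35 ± 0.28 (adjusted p = 0.295 by edgeR's quasi-likelihood test). That gene passed with DESeq2 (adjusted p = 0.0122) and, at 1.35 ± 0.25, with no filter on low counts (adjusted p = 2.97e-05 by edgeR). Dropping replicate 2 of the female controls widened its paternal difference to 1.61, while dropping replicate 1, the library highest in Mc4r, narrowed it to 1.03. Under dual exposure the Mc4r difference was 0.76 ± 0.28 (edgeR adjusted p = 0.143), and the same deletions gave 1.03 and 0.45. Each deletion leaves the females with 1 control library, so only sizes are given for these fits.

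For Sim1 the sex difference was -0.70 ± 0.43, -0.92 ± 0.44 and -0.91 ± 0.44 for paternal, maternal and dual exposure (edgeR adjusted p = 0.575, 0.511 and 0.255). For Lhx9 it was 0.84 ± 0.34, 0.89 ± 0.33 and 0.49 ± 0.34 (edgeR adjusted p = 0.406, 0.424 and 0.45). For Otp it was -0.02 ± 0.51, -0.77 ± 0.51 and -0.98 ± 0.53 (edgeR adjusted p = 0.995, 0.645 and 0.312). For Tcf7l2 it was 0.67 ± 0.48, 0.70 ± 0.48 and 0.30 ± 0.48 (edgeR adjusted p = 0.633, 0.65 and 0.773), and without female control replicate 2 it changed sign, to -0.25, -0.22 and -0.62. With no filter on low counts the Tcf7l2 difference passed for paternal and maternal exposure, at 0.68 ± 0.19 and 0.71 ± 0.19 (edgeR adjusted p = 0.0395 and 0.0273). That of Lhx9 passed for maternal exposure, at 0.89 ± 0.25 (edgeR adjusted p = 0.0452). The sizes hardly moved from the filtered fit while the SEs fell, and Tcf7l2 had 259 to 2372 counts per library. The reason for the smaller SEs was not tested. For Gbx2 the sex difference was -0.56 ± 0.43, 0.67 ± 0.41 and 0.07 ± 0.42 (edgeR adjusted p = 0.661, 0.614 and 0.952). With 2 libraries per group the SEs of these differences ran up to 0.53, and a p over the threshold does not show that the sexes responded alike.

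Averaged over exposures, 0 of the 6 genes passed between male and female cortices with all libraries and the filter, against 189 of 21543 genes called (0.877%). Every male library held fewer counts than every female library, so sex and depth cannot be told apart in this comparison. The male against female log2 fold change was -0.34 ± 0.17 for Tcf7l2 (adjusted p = 0.461, edgeR's quasi-likelihood test). Dropping replicate 2 of the female controls moved this Tcf7l2 value to -0.11, and dropping replicate 1 instead moved it to -0.48. Only sizes are given for these fits, as each has 1 female control library. With all libraries and no filter on low counts, Tcf7l2 passed, at -0.36 ± 0.07 (edgeR adjusted p = 2.29e-05). The male against female value was 0.24 ± 0.16 for Sim1 (edgeR adjusted p = 0.618). It was between -0.16 and -0.05 for Gbx2, Lhx9, Otp and Mc4r (edgeR adjusted p = 0.711 to 0.92).

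The 3 exposures share the same 4 controls, so their values against control move together and give no independent support to each other. Set against one another, the exposures differed most in Gbx2, at 0.67 ± 0.22 for maternal against paternal and 0.43 ± 0.22 for dual against paternal exposure. Otp was at -0.45 ± 0.27 for dual against paternal and at -0.29 ± 0.26 for maternal against paternal exposure. Mc4r was at 0.41 ± 0.14 for maternal against paternal exposure. Tcf7l2 stayed within 0.05 to 0.15 and Lhx9 within -0.15 to 0.07 in the 3 comparisons.

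Replicates of a group differed more for some of the 6 genes than for others. The pooled within-group standard deviation on the log2 scale was 0.47 for Otp, 0.47 for Tcf7l2, 0.36 for Sim1, 0.30 for Lhx9, 0.24 for Gbx2 and 0.23 for Mc4r. For Tcf7l2 this came mostly from the female controls, whose replicates were 1.49 apart, followed by 0.71 in the female dual and 0.67 in the male control pair. For Otp it came from the male maternal pair, 1.24 apart, and the female paternal pair, 1.0 apart.

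Once group means were removed, Tcf7l2 and Lhx9 moved together between replicates, with Pearson's r = 0.77 over 16 libraries and 0.74 over the 14 libraries without the female controls. Gbx2 correlated with Lhx9 at 0.48 and 0.46 and with Tcf7l2 at 0.20 and 0.12. Among hypothalamic genes Otp and Sim1 correlated at 0.21 and 0.27, Otp and Mc4r at -0.08 and 0.02, and Sim1 and Mc4r at 0.49 and 0.40. Across the 2 regions, Otp correlated with Lhx9 at 0.64 and 0.65, and Gbx2 with Mc4r at 0.45 and 0.71. Tcf7l2 and Mc4r ran opposite ways, at -0.68 with all libraries and -0.40 without the female controls. These values describe 16 libraries that hold 8 free differences between replicates, and shared depth and dissection enter all of them.

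Among 12249 expressed genes with a mean log2 CPM of at least 1, the 5 whose within-group variation was most like that of each gene were listed. For Tcf7l2 these were Tril (r = 0.97), Sox10 (0.95), a factor of the oligodendrocyte lineage, Kank1 (0.94), Trpm2 (0.94) and Rapgef3 (0.94). Without the female controls, Kank1 and Tril remained among the first 5, at 0.99 and 0.96, and Sox10 was at 0.90. For Lhx9 they were Vwa5b1 (0.94), Slc39a14 (0.91), Rad9b (0.90), Zic5 (0.89) and Ccdc157 (0.88). Without the female controls they were Zic5 (0.97), Ist1 (0.97), Rab39b (0.96), Otx2 (0.95), a forebrain and midbrain homeobox gene, and Zbtb12 (0.95). Over all 16 libraries Ist1, Rab39b, Otx2 and Zbtb12 were at 0.51, 0.16, 0.71 and 0.34. The highest of 12249 values are high by choice, and no level for chance was computed.

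For Otp the most alike were Pecr (0.88), Ntpcr (0.88), Tmem51 (0.88), Zfpm2 (0.87) and Ing2 (0.87), none of which stayed among the first 5 without the female controls. For Sim1 they were Eif4e2 (0.94), Eif1a (0.94), Rab7 (0.92), Tmem59 (0.92) and Zfp566 (0.91). For Mc4r they were Rnmt (0.97), Prpf18 (0.97), Heatr1 (0.96), Psmd1 (0.96) and Scarb2 (0.94), and for Gbx2 Adat2 (0.96), Gpr82 (0.93), Cask (0.93), Gla (0.91) and Cyld (0.91). None of the other thalamic or hypothalamic genes listed for comparison was among the first 5 of any of the 6. Only tested genes with a mean log2 CPM of at least 1 could be among them. Of 21 other hypothalamic genes, 12 passed the filter, so for the rest this absence was fixed in advance.

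Other thalamic genes were used to set female control replicate 2 beside the other libraries. The 11 others, all tested, summed to 241 CPM in that library, against 175.8 to 218.1 CPM in the other 15. Of the 11, 3 (Cacna1g, Ntng1 and Lef1) had their highest level there, where 10.1% of all tested genes did, and these 3 were named after their values were seen. Male maternal replicate 1 also held the highest level of 3 of the 11, where 6.61% of all tested genes had theirs. Male control replicate 2 held that of 2, where 5.8% did. Cacna1g, a T-type calcium channel of thalamic neurons, was at 81.7 CPM there, while the other libraries had 40.7 to 73.2 CPM. Rora, an orphan nuclear receptor of thalamic relay neurons, also singled out after its values were seen, had 22.1 CPM in female control replicate 2, 10.6 CPM in replicate 1 of that group and 22.3 CPM in male control replicate 2.

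Slc17a6, the vesicular glutamate transporter typical of thalamic relay neurons, was as high in other libraries as in female control replicate 2: it had 61.2 CPM there, and elsewhere 51.1 to 61.4 CPM. Prkcd, a kinase of sensory thalamic neurons, had 20.6 CPM there, and elsewhere 19.2 to 25.5 CPM. Both genes thus lay within the range of the other libraries where Tcf7l2 did not. The median log2 fold change of the 11 genes was -0.11 for paternal, -0.07 for maternal and -0.12 for dual exposure, beside -0.01, -0.00 and 0.00 over all tested genes, and 0.06, -0.01 and -0.04 without female control replicate 2. Under each exposure 0 of the 11 passed edgeR's test in either direction, where 0%, 0% and 3.36% of all tested genes did. With 0 genes called at all for paternal and maternal exposure, the 0 there says nothing of this list. Of the 11, 8, 7 and 9 were below 0, beside 52.5%, 51.1% and 49.9% of all tested genes.

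**Figure D4:**
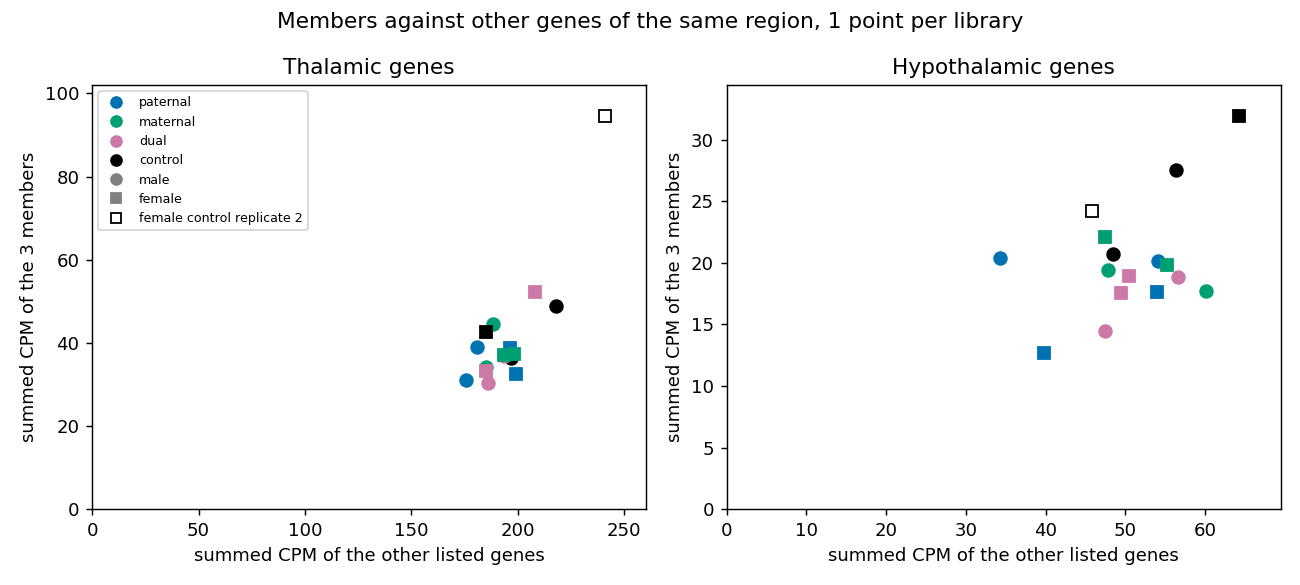
Summed CPM of the 3 thalamic genes against that of 11 other thalamic genes (left) and of the 3 hypothalamic genes against that of 21 other hypothalamic genes (right), with 1 point per library, coloured by exposure. Female control replicate 2 (open square) is highest on both axes for the thalamus, at 94.5 and 241 CPM. Of the 94.5 CPM, 68.7 CPM was Tcf7l2. For the hypothalamus this library lies among the others, at 24.2 and 45.8 CPM.

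Of 21 other hypothalamic genes, 12 passed the filter, and Rax, Six6, Nr5a1, Nkx2-4, Foxb1, Sim2, Oxt, Hcrt and Pmch did not. Their summed level was 34.3 to 64.3 CPM per library and highest in female control replicate 1. It ran from 34.3 to 54.2 CPM in paternal, from 47.5 to 60.1 CPM in maternal and from 47.4 to 56.6 CPM in dual libraries, against 45.8 to 64.3 CPM in control libraries, so each exposure overlapped the controls. Under each exposure 0 of the 12 passed edgeR's test, where 0%, 0% and 3.36% of all tested genes did. The median log2 fold change was 0.08, -0.05 and -0.05, and 0.22, -0.01 and -0.22 without female control replicate 2.

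Nkx2-1, a factor of the hypothalamus and of ventral telencephalic progenitors, was at 13.0 to 22.3 CPM in paternal, 18.1 to 23.1 CPM in maternal and 18.2 to 24.9 CPM in dual libraries, against 17.0 to 27.8 CPM in control libraries. Asb4, a gene of arcuate neurons, was at 6.48 to 15.8 CPM in paternal, 12.8 to 19.1 CPM in maternal and 14.4 to 17.9 CPM in dual libraries, against 11.1 to 20.4 CPM in control libraries. Fezf1, a factor of the ventromedial hypothalamus, was at 4.61 to 6.20 CPM in paternal, 5.13 to 10.002 CPM in maternal and 4.10 to 6.38 CPM in dual libraries, against 5.64 to 9.14 CPM in control libraries. The gap between exposed and control libraries seen in Otp was absent from these 3 genes.

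Partners and relatives of the 6 genes, a list of 11 of which 10 were tested, had 0 genes past the threshold under any exposure with both sexes pooled. Of all tested genes 0%, 0% and 3.36% passed for paternal, maternal and dual exposure. The medians of the list were 0.01, -0.02 and -0.13. Ctnnb1, the beta-catenin that TCF factors bind, had a log2 fold change of 0.06, 0.04 and -0.12 for paternal, maternal and dual exposure. Arnt2, the dimer partner of Sim1, had -0.02, -0.06 and -0.14, and Pou3f2, a factor that acts after Sim1 in the paraventricular nucleus, had 0.24, 0.13 and 0.23. In females alone, dual exposure had 2 of the 10 past edgeR's threshold, both lower: Arnt2, at -0.30 ± 0.07 (edgeR adjusted p = 0.00594), and Ctnnb1, at -0.28 ± 0.09 (edgeR adjusted p = 0.0362), where 3229 genes were called (15%). These 3 genes are expressed widely in the cortex, at means of 553.8, 330.6 and 276.6 CPM.

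Lists of other neighbouring regions also had 0 genes past the threshold under the 3 exposures with all libraries and both sexes pooled. For paternal, maternal and dual exposure 0%, 0% and 3.36% of all tested genes passed. The 11 genes of the habenula, pretectum and midbrain, 7 of them tested, summed to 3.13 to 3.94 CPM in paternal, 2.81 to 4.47 CPM in maternal and 3.65 to 4.44 CPM in dual libraries, against 4.14 to 6.10 CPM in control libraries. Tal1, a factor of midbrain neurons and also of blood cells, made up much of this, at 1.66 to 2.39 CPM in paternal, 1.43 to 2.10 CPM in maternal and 1.35 to 2.45 CPM in dual libraries, against 2.17 to 3.28 CPM in control libraries. Choroid plexus genes varied most between libraries, at 2.26 to 169.5 CPM in sum, mainly through Ttr, which carries thyroid hormone. Ttr was at 156 CPM in female dual replicate 2 and at 118 CPM in female paternal replicate 1. Female control replicate 2 was at 26.5 CPM for this list, within the range of the others. Female dual replicate 2, second to it in the sum of the thalamic members at 52.1 CPM, had the highest choroid plexus sum, at 169.5 CPM. Male control replicate 2 had 49.0 CPM of thalamic members and 70.2 CPM of choroid plexus genes. The other way, female paternal replicate 1 had 32.5 CPM of thalamic members and 128.7 CPM of choroid plexus genes. A link between these lists was not tested.

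Markers of other tissues also differed between exposed and control libraries while the diencephalic genes did. The 5 genes of the hippocampus and cortical hem were all below 0 under paternal and maternal exposure, with medians of -0.43 and -0.33, and 3 of 5 were below 0 under dual exposure, with a median of -0.07, which was 0.18 without female control replicate 2. The 6 meningeal and fibroblast genes were all above 0 under paternal and maternal exposure, with medians of 0.53 and 0.42, and 5 of 6 were below 0 under dual exposure, with a median of -0.30. Without female control replicate 2 the meningeal medians were 1.28, 1.17 and 0.42. The female control left was then replicate 1, which had the lowest meningeal sum of the series, at 80.3 CPM. Without female control replicate 1 the meningeal medians were 0.18, 0.10 and -0.66. Their size, and under dual exposure their sign, thus depended on which female control was kept. The part of these differences in the values of the diencephalic genes was not tested.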

How the data were processed

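The authors deposited 1 table of raw read counts per gene for each of 16 total RNA libraries, made with Illumina's TruSeq Standard Total RNA kit, per the labels. Trimmomatic, STAR, featureCounts and the build GRCm39 (mm39) are named in the submitters' processing notes. No version, annotation release or strand setting was given in the sources used here. Groups were taken from the sample titles, with 2 libraries each. Replicates differed by more than sampling noise in all 8 groups, with a median squared difference per gene of 1.46 to 4.60 in units of counting error, against 0.455 for noise alone. The value of 4.60 belonged to the female controls, and the next highest was 2.09, in the female dual group. The noisiest pair over all genes was thus the female reference for every exposure. Nothing says that replicates came from separate litters, and p-values therefore reflect only how far these samples spread, which may be technical.

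From the counts, genes were filtered with filterByExpr (minimum count 10, minimum total count 15), scaled by TMM and fitted with edgeR 4.0.16 in R 4.3.3 (glmQLFit and glmQLFTest, two-sided) as 8 group means, with 8 residual degrees of freedom. Differences between exposures average both sexes with equal weight. Adjusted p-values are Benjamini-Hochberg values over all 21543 genes tested, with a threshold of 0.05. The scripts were tested on simulated counts. Symbols were matched by ID for 52083 of 55359 IDs. The reference, on GRCm38.p6, was of another build and served for names, exon lengths, overlaps and RefSeq promoter sequences. Intervals on CPM cover counting error only.

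The members and gene lists were chosen with earlier results of these data known. One gene of the cortical list is not reported here and was left out of its sums. Genes named were the 6 members, the 3 genes of highest mean CPM in a list, any list gene past the threshold, and the 5 genes most like each member. Ntng1, Lef1 and Rora were named after their values were seen, and Emx1, Tbr1 and the filtered hypothalamic genes only as members of their lists. Ist1, Rab39b, Otx2 and Zbtb12 came from the likeness without the female controls. Alternatives were DESeq2 1.42.0, its size factors, no TMM, no filter, a replicate block, each sex alone, and leaving out each library in turn or both female dual libraries.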

Additional observations from a re-analysis of the deposited data

Results flagged for a closer look

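One value stood apart within its exposure. Among the 4 paternal libraries, Otp in female paternal replicate 1 was at 2.19 CPM, against 3.94 to 4.40 CPM in the other 3, and its gap to the nearest of them was 0.843 of the whole range, over Dixon's 95% critical value for 4 samples. In all, 24 sets of 4 libraries were checked (6 genes by 4 exposures), and chance flags about 1 in 20. Without that library the paternal log2 fold change of Otp was -0.43.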

How the results depend on the processing

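DESeq2 called 22 genes for paternal and 2 for maternal exposure, 309 between the sexes, and 25 and 14 for the sex difference of the paternal and maternal effects. With no filter on low counts the counts were 321 for paternal, 79 for maternal and 1345 for dual exposure, 603 between the sexes, and 334, 278 and 1542 for the sex differences of the paternal, maternal and dual effects. Without TMM 1130 genes were called between the sexes. Leaving out 1 library gave 0 to 672 calls for paternal, 0 to 115 for maternal and 142 to 2056 for dual exposure, 109 to 1003 between the sexes, and 0 to 1052, 0 to 612 and 18 to 2854 for the 3 sex differences; the cause was not tested.

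With the replicate number as a block the counts were 0, 0 and 727 for the 3 exposures, 186 between the sexes, and 0, 0 and 775 for the sex differences. The numbers did not pair the samples: deviations of same-numbered replicates correlated at -0.14 to 0.18 between groups, with a median of -0.00. Without both female dual libraries no gene was called in the paternal, maternal and sex-difference comparisons that could be run. Low counts limit Gbx2, Otp and Sim1 most, with as few as 12, 26 and 34 counts in a library.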
